A study of Homo sapiens with 12 samples.

Results

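The carcinoembryonic antigen-related cell adhesion molecules (CEACAMs) are surface proteins of the immunoglobulin superfamily that bind to one another between cells. CEACAM5, CEACAM6 and CEACAM7 are held in the membrane by a glycosylphosphatidylinositol (GPI) lipid anchor, whereas CEACAM1 and CEACAM19 span it, and the long tail of CEACAM1 carries inhibitory tyrosine motifs that recruit SHP phosphatases. CEACAM5, the classical carcinoembryonic antigen, and CEACAM6 are abundant in many carcinomas, and both are known for reducing anoikis, the death of epithelial cells that lose contact with a substrate. The 5 genes were taken from the count table by their symbols, 5 of its 58735 genes, and 4 of them, all except CEACAM7, had enough counts to be tested among 17829 genes.

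A549 is an established human lung adenocarcinoma line that grows attached. Control cells and cells with ectopic GFI1, a zinc-finger repressor of blood cell development, were either grown on the culture plate (attached) or forced into suspension for 48 hours (floating), with 3 libraries in each of the 4 groups. GFI1 was delivered with a lentivirus under a PGK promoter, as far as the methods state it, and transduced cells were sorted by GFP. The vector of the RNA-Seq controls was not stated, so an effect of transduction that the controls lacked cannot be told apart from the GFI1 effect. No label says that the 3 libraries of a group came from separate cultures, and p-values measure only the spread between these libraries.

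The libraries held between 17014188 and 20748677 counts. GFI1 had 4 to 12 counts in the 6 control libraries and 5154 to 12796 in the 6 GFI1 libraries. Among the GFI1 libraries its level was 286 to 294 CPM when attached and 430 to 706 CPM when floating. Its log2 fold change in suspension was 0.95 ± 0.10 (SE, edgeR quasi-likelihood test, adjusted p = 2.38e-08). Replicate 3 of the floating GFI1 group was the lowest there, at 430 CPM. Comparisons between attached and floating GFI1 cells thus also differ in the level of GFI1, whose part was not tested. The first principal component, with 69.8% of the variance, separated control from GFI1 libraries, and the second, with 12.7%, separated attached from floating libraries. Replicate 3 of the floating GFI1 group stood apart on the second component, at -13.6 against -20.6 and -23.9, and results that rest on it are given without it. Of the epithelial markers, KRT7, KRT8 and KRT18 were abundant, at 457 CPM or more in every library. EPCAM lay between 0.277 and 2.68 CPM and KRT19 between 0.746 and 4.43 CPM. The summed level of the 5 epithelial markers was 10263 to 10867 CPM in attached control, 4216 to 4332 in attached GFI1, 6445 to 6848 in floating control and 3036 to 3407 in floating GFI1 libraries. The sum followed KRT8 and KRT18. EPCAM was lower with GFI1 too, at 1.78 to 2.68 CPM in attached control and 0.277 to 0.845 CPM in attached GFI1 libraries. In floating libraries it was at 1.3 to 2.43 CPM in control and 0.441 to 0.796 CPM with GFI1. KRT7 was at 1987 to 2164 CPM in attached control and 1744 to 1806 CPM in attached GFI1 libraries, and KRT19 was at 0.746 to 1.47 and 1.63 to 2.17 CPM. The blood cell markers PTPRC and CD3E had at most 1 count in any library. Granulocytes also carry CEACAM proteins. Of their 4 markers, FCGR3B had no count and MPO at most 1, whereas CSF3R had 0 to 4 counts in control and 54 to 85 in GFI1 libraries, and ELANE had 22 to 84 over all libraries. The 4 summed to 1.31 to 1.66 CPM in attached control, 6.41 to 6.74 in attached GFI1, 3.01 to 4.03 in floating control and 5.77 to 8.71 in floating GFI1 libraries. The endothelial marker CDH5 had 1 to 3 counts in control and 52 to 89 in GFI1 libraries. PECAM1, the other endothelial marker, had 0 to 10 counts and at most 0.551 CPM over all libraries. Summed, they reached at most 0.361 CPM in control and at least 2.72 CPM in GFI1 libraries, and this sum followed CDH5. The part of these markers in the CEACAM results was not tested, and in bulk samples fewer cells of a type and less RNA per cell cannot be told apart.

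The 5 genes lie on chromosome 19 (GRCh38). In GENCODE v44, CEACAM7 spans 41673303 to 41706976 on the minus strand, CEACAM5 41708585 to 41730433 and CEACAM6 41750977 to 41772211 on the plus strand, CEACAM1 42507304 to 42561234 on the minus strand and CEACAM19 44662278 to 44684359 on the plus strand. RefSeq promoter sequences, from 250 bases before to 50 bases after the gene start that RefSeq gives, were at hand for 4 of the 5 members and were identical to the same positions of hg38. RefSeq and GENCODE place these starts differently. For CEACAM1, CEACAM6 and CEACAM7 the window lies inside the GENCODE span, since GENCODE includes exons further upstream, and which start the A549 transcripts used was not measured. CEACAM19 had no entry. They are shown because CEACAM5, CEACAM6 and CEACAM7 were lower in the GFI1 libraries and CEACAM1 was not. Capitals mark 3 motifs searched on both strands: AATC, the core of the GFI1 motif, CACGTG, an E-box of the kind that USF factors bind, and GAAANNGAAA, a pattern found in interferon-stimulated response elements. None of the marked matches overlap one another.
CEACAM6, chr19:41755280-41755579, plus strand: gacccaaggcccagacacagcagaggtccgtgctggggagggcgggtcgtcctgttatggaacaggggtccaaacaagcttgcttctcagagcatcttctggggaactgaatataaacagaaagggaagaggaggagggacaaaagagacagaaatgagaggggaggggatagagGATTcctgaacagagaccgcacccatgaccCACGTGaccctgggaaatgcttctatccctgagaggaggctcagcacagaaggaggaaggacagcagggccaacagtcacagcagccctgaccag
CEACAM5, chr19:41708376-41708675, plus strand: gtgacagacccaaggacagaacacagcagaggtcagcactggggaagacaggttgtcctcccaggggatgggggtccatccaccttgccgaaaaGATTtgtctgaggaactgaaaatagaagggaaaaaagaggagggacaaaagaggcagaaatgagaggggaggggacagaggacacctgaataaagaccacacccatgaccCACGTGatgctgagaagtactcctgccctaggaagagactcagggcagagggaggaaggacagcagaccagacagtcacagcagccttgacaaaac
CEACAM7, chr19:41688221-41688520, minus strand: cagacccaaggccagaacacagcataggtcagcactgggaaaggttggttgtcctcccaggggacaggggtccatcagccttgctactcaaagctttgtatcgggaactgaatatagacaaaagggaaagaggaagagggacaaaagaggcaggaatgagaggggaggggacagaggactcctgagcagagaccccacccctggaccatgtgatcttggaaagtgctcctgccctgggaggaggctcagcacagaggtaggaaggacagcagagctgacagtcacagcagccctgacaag
CEACAM1, chr19:42528432-42528731, minus strand: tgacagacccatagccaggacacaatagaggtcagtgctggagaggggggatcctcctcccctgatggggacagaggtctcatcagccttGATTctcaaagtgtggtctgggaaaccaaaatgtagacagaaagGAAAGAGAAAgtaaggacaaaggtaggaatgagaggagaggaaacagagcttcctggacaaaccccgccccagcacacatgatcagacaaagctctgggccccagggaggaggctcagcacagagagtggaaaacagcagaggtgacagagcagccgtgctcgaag

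The 4 promoters were alike. Identity over the aligned bases was 84.7% between CEACAM5 and CEACAM7, 81.5% between CEACAM6 and CEACAM7 and 78.8% between CEACAM5 and CEACAM6. CEACAM1 was 77.1% identical to CEACAM7, 74.8% to CEACAM6 and 70.7% to CEACAM5. The E-box stood in the CEACAM5 promoter from base -46 and in the CEACAM6 promoter from base -45, counted from the RefSeq start, and in neither of the other 2. It was found in 7.26% of 35116 promoters of the same length. AATC, which appears as GATT on the strand shown, was found once each in CEACAM1, CEACAM5 and CEACAM6 and not in CEACAM7, and in 69% of all promoters. GAAANNGAAA was found only in CEACAM1 among the 4, from base -116, and in 3.57% of all promoters. A match is a run of letters and not a measured binding site. The study did measure GFI1 binding by chromatin immunoprecipitation (ChIP-Seq) in A549 cells, and it reported CEACAM6 as bound. It found GFI1 peaks at the promoters of very many genes, some raised and some lowered by GFI1. Binding alone thus does not set CEACAM6 apart. Where that binding lay relative to the window shown was not examined here.

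The family members can share exon sequence, which matters for how reads are assigned. Of the windows of 50 bases in the exons of CEACAM6, 4.21% occurred without a mismatch in another CEACAM or pregnancy-specific glycoprotein (PSG) gene. The share was 2.6% for CEACAM5 and 2.09% for CEACAM1, and no such window was found for CEACAM7 or CEACAM19. CEACAM5 shared more of these windows with CEACAM6 (1.13%) than with any other gene. At 100 bases no window of any member was shared. Whether reads of the abundant CEACAM6 were counted for CEACAM5 was not tested. Exons of other genes also overlapped those of the members. ENSG00000267881, a protein-coding entry on the same strand, covered 138 bases (4.67%) of the CEACAM6 and 139 bases (3.49%) of the CEACAM5 exons, and had at most 1 count in any library. PVR, on the same strand, covered 121 bases (2.34%) of the CEACAM19 exons, and LIPE-AS1, on the opposite strand, 185 bases (3.35%) of those of CEACAM1. Whether the counting used strand was not stated, so reads from overlapping genes may not be told apart there.

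CEACAM6 was the dominant member in control cells. Per kilobase of the gene length listed in the count table, its level was 63.0 ± 1.83 CPM in attached control and 137 ± 9.46 CPM in floating control cells (mean ± SD, n = 3 each, as for all means of CPM here). CEACAM19 followed in attached control cells with 5.05 ± 0.207 and CEACAM1 with 1.35 ± 0.0695 CPM per kilobase. CEACAM5 was at 0.294 ± 0.0949 and CEACAM7 at 0.201 ± 0.127 CPM per kilobase, and the ranges of these 2 overlapped. In the attached GFI1 cells the order was different. CEACAM19 was highest with 4.04 ± 0.135 and CEACAM1 next with 3.41 ± 0.433 CPM per kilobase, ahead of CEACAM6 with 0.742 ± 0.184. In floating GFI1 cells the same 3 genes were at 4.65 ± 0.536, 3.75 ± 0.544 and 1.2 ± 0.288 CPM per kilobase. Summed over the 5 genes, the level was 68.0 to 71.9 CPM per kilobase in attached control and 139 to 156 in floating control libraries, against 8.03 to 8.40 in attached GFI1 and 9.49 to 9.83 in floating GFI1 libraries. CEACAM6 made up 90.0% to 90.3% of the sum in attached control and 93.6% to 94.9% in floating control libraries. It made up 7.25% to 11.6% in attached GFI1 and 10.1% to 16.0% in floating GFI1 libraries, where CEACAM19 and CEACAM1 together held nearly all of the rest.

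**Figure D1:**
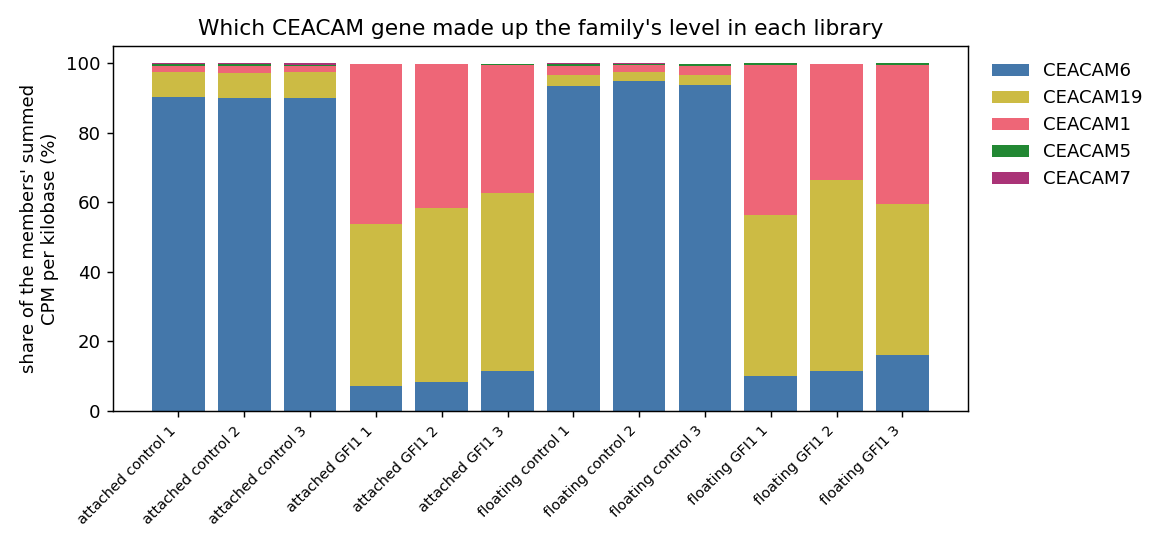
Share of each CEACAM gene in the members' summed CPM per kilobase (vertical axis, percent) in each of the 12 libraries (horizontal axis). CEACAM6 holds at least 90.0% of every control bar and at most 16.0% of every GFI1 bar.

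The first comparison asked what GFI1 did to the family in attached cells. CEACAM6 and CEACAM5, which encode GPI-anchored proteins, fell, CEACAM19 fell slightly and CEACAM1 rose. So 1 of the 4 tested members was called higher and 3 lower by the edgeR quasi-likelihood test (Benjamini-Hochberg adjusted p, threshold 0.05), where 29.5% of all tested genes were called higher and 32.8% lower, 62.3% in all. With so many genes called, the share of members called is not a result about the family, and the sizes of the changes are given one by one.

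CEACAM6 had 3328, 3444 and 3343 counts in the attached control libraries and 33, 44 and 58 in the attached GFI1 libraries. The levels were 198, 187 and 192 CPM against 1.86, 2.03 and 2.90 CPM. Every control library was far above every GFI1 library. The log2 fold change was -6.40 ± 0.10 (SE), 84.4-fold lower (adjusted p = 2.79e-25), and it ranked 14 from the lowest of 17829. The study named CEACAM6 as lowered by GFI1 from these samples, so that its fall here is not independent evidence of its direction. It also listed CEACAM6 as bound by GFI1, from ChIP-Seq of A549 cells with FLAG-tagged GFI1, as were very many other genes.

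CEACAM5 was less abundant, with 18, 23 and 11 counts in attached control libraries. The attached GFI1 libraries had 0, 0 and 1. The groups did not overlap, and the log2 fold change was -5.39 ± 0.74 (adjusted p = 6.85e-07). CEACAM5 reached the filter on counts only through the control groups in which it was high. Its tests against GFI1, attached and floating, are therefore not independent of the filter. With 1 count in the GFI1 group, the summed counts gave a ratio of 58.7 with a 95% counting interval from 10.1 to 2362 (exact conditional binomial). Without replicate 3 of the attached GFI1 group, which held that count, the fitted value was -7.17. Intervals cover counting error only, and floors only that of the group without counts.

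CEACAM7, a GPI-anchored protein known from the colon epithelium, had 5, 7 and 16 counts in the attached control libraries and none in the attached GFI1 libraries. It was too low for the filter on counts and was not tested in the main fit. Against a floor of 3 counts over the GFI1 group, its level was 10.5-fold lower there, a value that leaves out counting error in the control group. In the fit without a filter on low counts, its adjusted p was 5.32e-07.

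CEACAM1 went the other way. It had 7.74, 7.55 and 7 CPM in attached control libraries and 21.4, 18.5 and 16.7 CPM in attached GFI1 libraries, from 122 to 139 and from 333 to 400 counts. All GFI1 libraries were above all control libraries. The log2 fold change was 1.34 ± 0.11, a 2.53-fold rise (adjusted p = 1.4e-10). The antisense gene LIPE-AS1 that overlaps it had 14 to 45 counts over the 12 libraries.

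CEACAM19, a less studied transmembrane member, had 26.7, 25 and 27 CPM in attached control and 20.4, 20.9 and 21.8 CPM in attached GFI1 libraries. The groups did not overlap, although the difference was small, with a log2 fold change of -0.32 ± 0.08 (adjusted p = 0.0011). This call did not hold when libraries were scaled by their size only (adjusted p = 0.0591), a scaling that moved the median log2 fold change of all genes in both GFI1 comparisons to 0.140. PVR, which shares exon bases with CEACAM19, fell in the same comparison by 0.87 ± 0.04 on the log2 scale (adjusted p = 3.79e-16). Its part in the CEACAM19 counts was not tested.

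**Figure D2:**
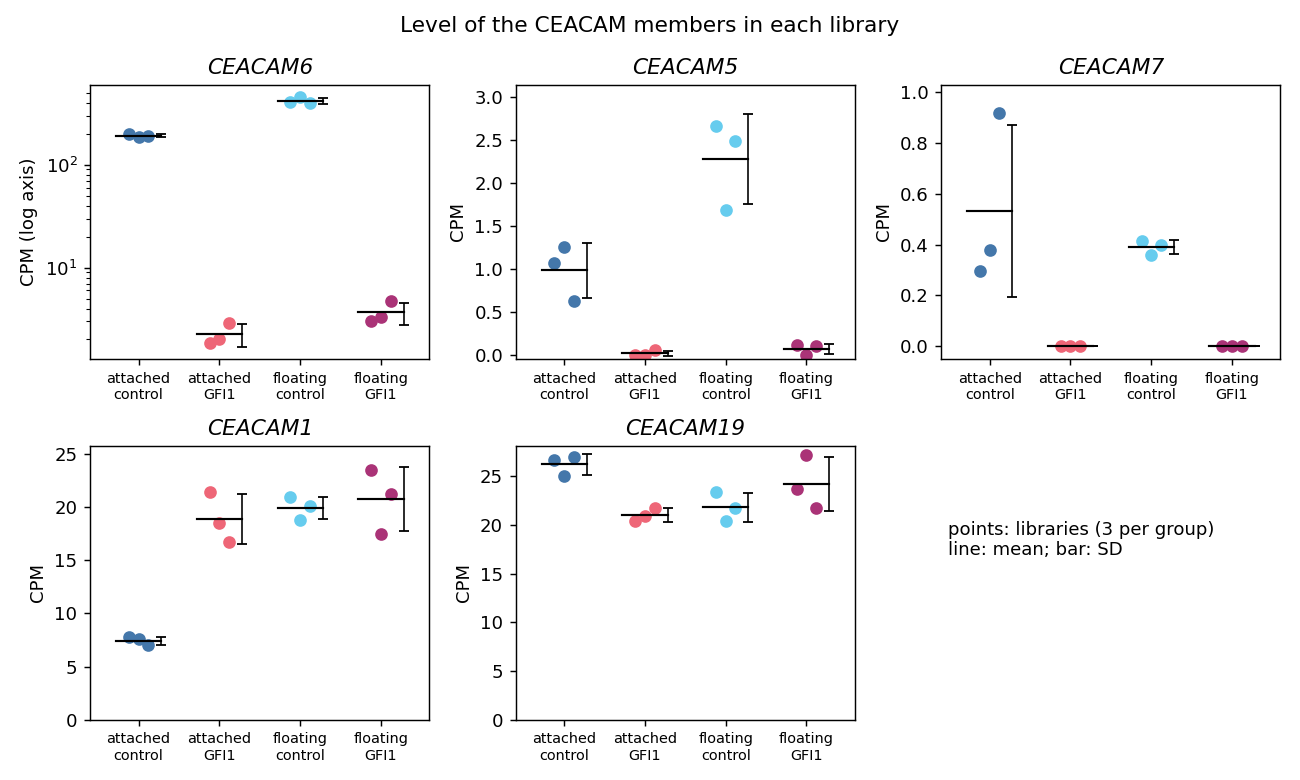
CPM (vertical axes; logarithmic for CEACAM6, linear for the others) of the 5 members in the 4 groups. Points are libraries, lines are means and bars are SDs. CEACAM6 lies between 187 and 452 CPM in control and between 1.86 and 4.68 CPM in GFI1 libraries, and CEACAM1 is low only in the attached control group.

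The second comparison asked the same of cells in suspension. CEACAM6 and CEACAM5 were again far lower with GFI1, and the other 2 tested members were not called. The 2 members of 4 that were called lower stand beside 31.1% of all tested genes called lower, 29.3% called higher and 60.4% called in all.

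CEACAM6 had 409, 452 and 397 CPM in floating control libraries and 3.03, 3.31 and 4.68 CPM in floating GFI1 libraries, from 6898 to 7509 and from 55 to 94 counts. Replicate 3 of the GFI1 group was the highest of its group and still far below every control library. The log2 fold change was -6.82 ± 0.09, 113-fold lower (adjusted p = 1.24e-26), and it ranked 10 from the lowest.

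CEACAM5 had 45, 28 and 44 counts in floating control and 2, 0 and 2 in floating GFI1 libraries. The log2 fold change was -4.88 ± 0.52 (adjusted p = 8.57e-09), and the ratio of the summed counts was 32.2 (95% counting interval 12.3 to 120). CEACAM5 summed to 52 counts in attached and 117 in floating control libraries, beside 10115 and 21419 for CEACAM6. Whether some of them were reads of CEACAM6 was not tested, so the changes of these genes may not be separate. CEACAM7 had 7, 6 and 7 counts in floating control libraries and none in floating GFI1 libraries, 7.35-fold lower against the same floor. Thus none of the 6 GFI1 libraries held a CEACAM7 count, and all 6 control libraries held at least 5.

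CEACAM1 had 20.9, 18.8 and 20.1 CPM in floating control and 23.5, 17.5 and 21.2 CPM in floating GFI1 libraries. These groups overlapped, and the log2 fold change was 0.06 ± 0.10 (adjusted p = 0.631). Its sign depended on 1 library, as it was -0.03 without replicate 1 of the floating GFI1 group. CEACAM19 had 23.4, 20.4 and 21.7 CPM in floating control and 23.7, 27.2 and 21.7 CPM in floating GFI1 libraries, which also overlapped. Its log2 fold change was 0.15 ± 0.08 (adjusted p = 0.117). Without replicate 3 of the floating GFI1 group it was 0.22 with an adjusted p of 0.0233, and with scaling by library size only it was 0.28 with an adjusted p of 0.00409.

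Suspension itself was compared in control cells and in GFI1 cells. Suspended control cells carried more CEACAM6, CEACAM5 and CEACAM1 mRNA than attached control cells, each by a factor of between 2.18 and 2.68, and slightly less CEACAM19. Of the 4 tested members, 3 were called higher and 1 lower, beside 19.6% and 20.5% of all tested genes, 40.1% in all. The control libraries that enter this comparison are the same as in the GFI1 comparisons, so the values are not independent of them.

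In control cells, the log2 fold change in suspension was 1.12 ± 0.06 for CEACAM6 (adjusted p = 6.22e-14), and the 3 floating libraries, at 397 CPM or more, were all above the attached ones. It was 1.21 ± 0.32 for CEACAM5 (adjusted p = 0.0041), whose attached control libraries had 0.631 to 1.25 CPM and floating control libraries 1.69 to 2.67 CPM. CEACAM1 rose by 1.42 ± 0.11 on the log2 scale (adjusted p = 2.18e-10), and it ranked 348 from the highest of 17829. CEACAM19 fell by 0.27 ± 0.08 on the log2 scale (adjusted p = 0.00939), a call that was lost without replicate 2 of the floating control group (adjusted p = 0.0559). CEACAM7 had 28 counts over the attached and 20 over the floating control libraries, a ratio of 1.36 with a counting interval from 0.739 to 2.55, and at this depth no difference was detectable.

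In GFI1 cells, 1 of the 4 members was called in suspension, CEACAM6, where 15.0% of all tested genes were called higher and 16.3% lower, 31.3% in all. Its log2 fold change was 0.70 ± 0.18 (adjusted p = 0.00408), from 1.86 to 2.90 CPM attached to 3.03 to 4.68 CPM floating. Without replicate 3 of the floating GFI1 group, which stood apart, the value was 0.48 and the adjusted p was 0.0632. CEACAM1 differed by 0.14 ± 0.10 (adjusted p = 0.299) and CEACAM19 by 0.20 ± 0.08 (adjusted p = 0.057), both with overlapping groups. For CEACAM19 the adjusted p was 0.0104 without replicate 3 of the floating GFI1 group. CEACAM5 had 1 count over the attached and 4 over the floating GFI1 libraries, a ratio of 4.21 with a counting interval from 0.417 to 208, which does not fix a direction.

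The interaction tested whether the GFI1 effect differed between floating and attached cells. GFI1 itself was higher in floating than in attached GFI1 cells, so its level and the state cannot be told apart. The interaction was called for CEACAM1 and CEACAM19, 1 in each direction, beside 4.76% of all tested genes called positive and 6.01% negative, 10.8% in all. For CEACAM1, the GFI1 effect was smaller in floating cells by 1.28 ± 0.15 on the log2 scale (adjusted p = 1.61e-06). The level was low in attached control cells, at 7.43 ± 0.384 CPM, and between 18.8 ± 2.39 and 20.7 ± 3.01 CPM in the other 3 groups, among which the tested pairs were not called. For CEACAM19, the GFI1 effect was higher in floating cells by 0.47 ± 0.11 (adjusted p = 0.00701), with means of 26.3 ± 1.08 CPM in attached control, 21.0 ± 0.701 in attached GFI1, 21.8 ± 1.48 in floating control and 24.2 ± 2.79 in floating GFI1 cells. For CEACAM6 the difference was -0.42 ± 0.20 (adjusted p = 0.195), and without replicate 3 of the floating GFI1 group it was -0.64 (adjusted p = 0.0323). For CEACAM5 it was 0.51 ± 0.98 (adjusted p = 0.818), a value that rested on the single count of the attached GFI1 group. It was 2.297 without replicate 3 of that group, which held the count, and 0.021 without replicate 2.

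**Figure D3:**
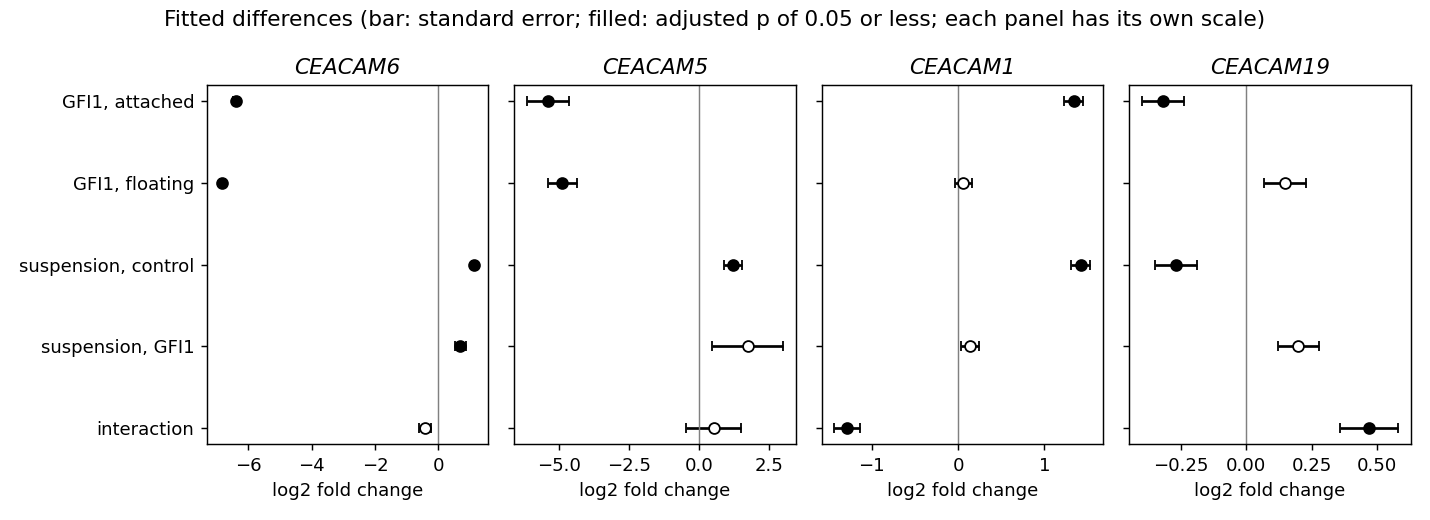
Fitted log2 fold changes (horizontal axes, each panel with its own scale) of the 4 tested members in the 5 comparisons (vertical axis). Bars are standard errors and filled points have an adjusted p of 0.05 or less. The GFI1 points of CEACAM6 lie at -6.40 and -6.82, and those of CEACAM1 at 1.34 and 0.06.

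Other genes of the family were mostly silent. Of 19 further CEACAM and PSG genes, 18 had at least 1 count in some library and 3 had enough to be tested. CEACAM16, a secreted protein of the inner ear, had 12 to 17 counts in attached control and 3 to 4 in attached GFI1 libraries, and 20 to 23 in floating control and 3 to 7 in floating GFI1 libraries. Its log2 fold change with GFI1 was -2.17 ± 0.43 when attached (adjusted p = 9.07e-05) and -2.35 ± 0.38 when floating (adjusted p = 8.2e-06), in the direction of CEACAM5 and CEACAM6. CEACAM16 reached the filter only through the control groups in which it was high. Of the PSG genes, which encode secreted proteins of the placenta, only PSG1 and PSG4 were tested, and both reached the filter through the GFI1 groups in which they were high. PSG2, PSG3, PSG7, PSG8, PSG9, PSG10P and PSG11 had at most 3 counts in any library. PSG1 had 1 count in each attached control library and 35, 40 and 41 in attached GFI1 libraries, a ratio of 34.3 (counting interval 11.4 to 169, adjusted p = 8.89e-09). In floating cells it had none in control and 25, 12 and 19 in GFI1 libraries, 16.9-fold higher against a floor of 3 counts (adjusted p = 1.74e-07). In GFI1 cells PSG1 fell in suspension by 0.97 ± 0.29 on the log2 scale (adjusted p = 0.0129), but without replicate 2 of the floating GFI1 group the adjusted p was 0.084. PSG4 had 1 to 3 counts in attached control and 16 to 22 in attached GFI1 libraries (log2 fold change 3.03 ± 0.54, adjusted p = 2.53e-05). In floating cells it had at most 2 counts in control and 2 to 5 in GFI1 libraries, and its adjusted p of 0.0465 was lost in the DESeq2 fit (0.0918). Its log2 fold change of 2.14 ± 0.91 there was 4.89 without replicate 3 of the floating control group, which held the only control counts, and the call was lost in 10 of the 11 fits without another library, with 1.63 as the lowest value. PSG6, not tested in the main fit and picked out after its values were seen, had 0 or 1 count in attached control and 9 to 23 in attached GFI1 libraries. The PSG genes are near copies of one another, and how reads were shared among them is uncertain. Their counts stayed below those of CEACAM1 in every library.

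The members were then set beside the genes that lie between them. The stretch from CEACAM7 to CEACAM19 holds 142 genes of the table, of which 67 were tested, 4 of them members. Among the other 63, 36 were called higher with GFI1 in attached cells (57.1%) and 11 lower (17.5%), beside 29.5% and 32.8% of all tested genes, and their median log2 fold change was 0.40 against -0.01 for all genes. In floating cells 28 were called higher (44.4%) and 11 lower (17.5%), beside 29.3% and 31.1% of all tested genes, with a median of 0.35 against 0.01. Zinc-finger genes named ZNF, picked out after their values were seen, made up 25 of the 63. Of these, 19 (76%) were called higher in attached and 17 (68%) in floating cells, against 44.7% and 28.9% of the other 38 neighbours. Of all 427 tested genes named ZNF, 42.4% and 43.1% were called higher. The next tested genes on either side of CEACAM7, CEACAM5 and CEACAM6 were DMAC2, a mitochondrial assembly factor, and RPS19, a ribosomal protein. DMAC2 fell with GFI1, with log2 fold changes of -0.49 ± 0.05 when attached (adjusted p = 6.79e-10) and -0.70 ± 0.05 when floating (adjusted p = 1.5e-12). RPS19 fell too, at -0.39 ± 0.05 (adjusted p = 8.92e-08) and -0.59 ± 0.05 (adjusted p = 5.91e-11). Both changes were small beside those of CEACAM5 and CEACAM6. Next to CEACAM1 lay LIPE, the hormone-sensitive lipase, at 0.38 ± 0.11 when attached (adjusted p = 0.00427) and 0.20 ± 0.12 when floating (adjusted p = 0.151), and PSG1 on the other side. Without replicate 3 of the floating GFI1 group LIPE was called in floating cells too (adjusted p = 0.0486). Around CEACAM19, PVR fell in both states, at -0.87 ± 0.04 (adjusted p = 3.79e-16) and -0.35 ± 0.04 (adjusted p = 2.98e-08). So did AC243964.3, an unclassified transcript that starts within CEACAM19, at -0.93 ± 0.07 (adjusted p = 1.83e-11) and -0.21 ± 0.08 (adjusted p = 0.0206). The last call was lost with upper quartile scaling (adjusted p = 0.0731) and in 3 of the 12 fits without 1 library, those without replicate 2 of the floating GFI1 group (-0.163, adjusted p = 0.102) or without replicate 2 or 3 of the floating control group. The lowest values among the neighbours were those of IGSF23 in attached cells, at -1.29 ± 0.41 (adjusted p = 0.00793), and of LYPD3 in floating cells, at -1.76 ± 0.50 (adjusted p = 0.00354). IGSF23 reached the filter mainly through the attached control group (12 to 17 counts) and LYPD3 mainly through the floating control group (13 to 16 counts). These tests are therefore not independent of the filter. The IGSF23 call was lost without replicate 3 of the attached GFI1 group (-1.017, adjusted p = 0.0555), and its value was -1.841 without replicate 2.

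**Figure D4:**
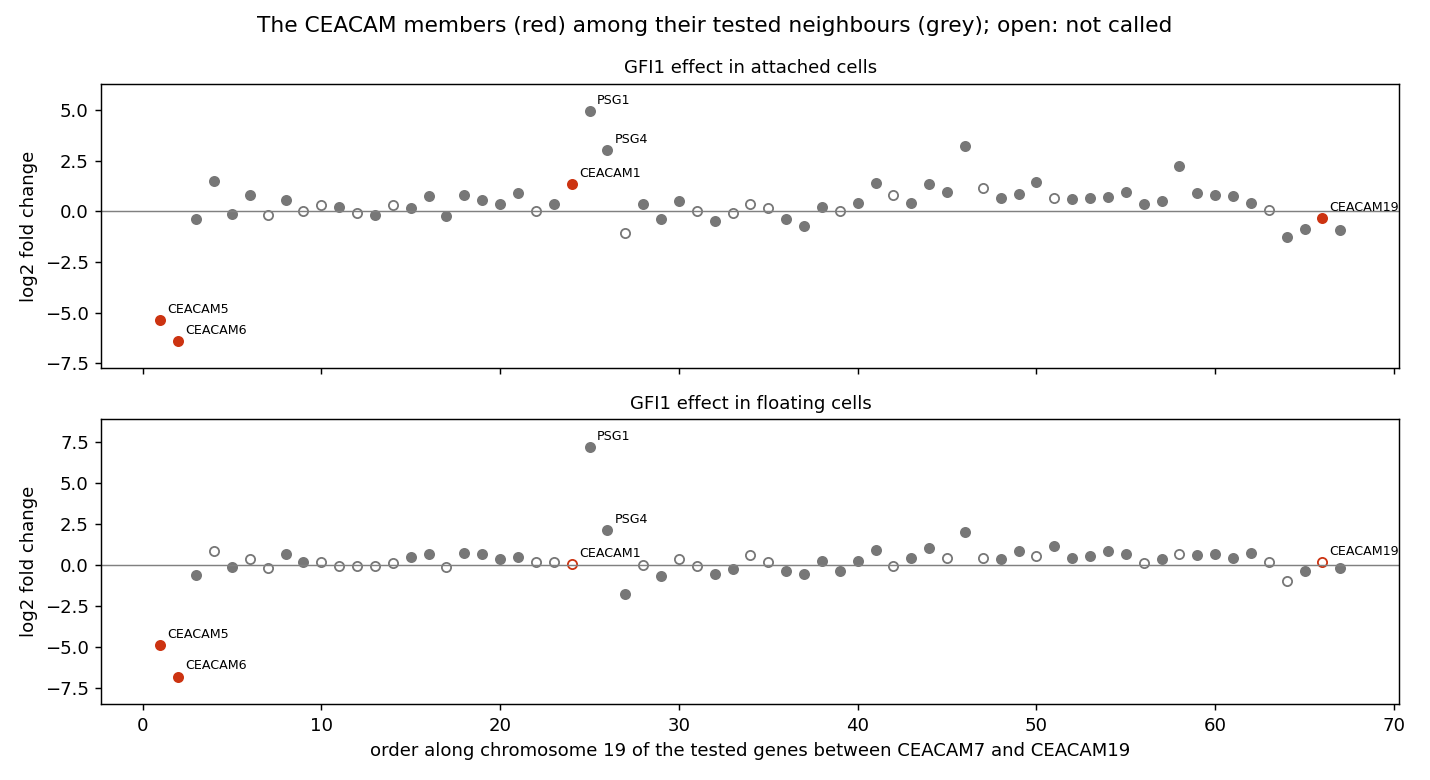
Log2 fold change with GFI1 (vertical axes) of the 67 tested genes from CEACAM7 to CEACAM19 in their order along chromosome 19 (horizontal axis), in attached cells (top) and floating cells (bottom). Members are red, other genes grey, and open points were not called. CEACAM5 and CEACAM6, at the left end, are the only points below -2 in both panels.

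Genes that CEACAM proteins signal through or bind were followed as a list of 17, of which 16 were tested. With GFI1, 6 rose and 9 fell in attached cells, and 6 rose and 8 fell in floating cells, with medians of -0.20 and -0.08 against -0.01 and 0.01 for all genes. Of all tested genes, 29.5% rose and 32.8% fell when attached, and 29.3% rose and 31.1% fell when floating. The phosphatase gene PTPN6 (SHP-1), which is recruited by CEACAM1, rose by 0.93 ± 0.07 (adjusted p = 6.41e-12) and 0.47 ± 0.07 (adjusted p = 1.02e-06), whereas PTPN11 (SHP-2) fell, at -0.24 ± 0.04 (adjusted p = 3.15e-05) and -0.16 ± 0.04 (adjusted p = 0.00194). The adaptor gene SHC1 rose by 0.77 ± 0.05 (adjusted p = 6.2e-13) and 0.86 ± 0.05 (adjusted p = 7.08e-14). ITGB3, the integrin beta 3 subunit, rose by 2.08 ± 0.32 (adjusted p = 3.48e-06) and 0.67 ± 0.24 (adjusted p = 0.0193), and the second call was lost without replicate 3 of the floating control group (adjusted p = 0.0907). TLR4, the endotoxin receptor, had 21 to 34 counts in control libraries and at most 3 in GFI1 libraries. It reached the filter only through the control groups in which it was high. The ratio of its summed counts was 19.2 (counting interval 7.16 to 72.4, adjusted p = 3.13e-07) when attached and 101 (17.8 to 4049, adjusted p = 6.15e-09) when floating. Its fitted log2 fold changes rested on single counts. In attached cells the value was -4.13 ± 0.54, and it was -5.33 without replicate 3 and -3.53 without replicate 2 of the GFI1 group, and in floating cells -6.20 ± 0.64 became -8.04 without replicate 1 of the GFI1 group. PTPN6 and PTPN11 were picked out after their values were seen.

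Of 15 genes known as regulators of CEACAM transcription or splicing, 13 were tested. In attached cells 5 rose and 6 fell with GFI1, and in floating cells 5 rose and 3 fell, with medians of -0.11 and 0.03 against the same all-gene medians. So 11 and 8 of the 13 were called, beside 62.3% and 60.4% of all tested genes. IRF1, the interferon regulatory factor that can activate CEACAM1, rose most. It had 404 to 427 counts in attached control and 3660 to 4534 in attached GFI1 libraries, 8.61-fold higher (adjusted p = 1.21e-24), and 370 to 416 and 3149 to 3308 counts in floating cells, 7.44-fold higher (adjusted p = 4.77e-24). USF1, picked out after its values were seen, rose by 0.81 ± 0.05 (adjusted p = 9.47e-13) and 0.79 ± 0.05 (adjusted p = 1.39e-12) on the log2 scale. NFKB1 was the lowest called gene of the list, with -0.80 ± 0.06 (adjusted p = 4.89e-11) and -0.76 ± 0.07 (adjusted p = 2.14e-10).

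CEACAM5, CEACAM6 and CEACAM7 need the GPI anchor. Of 31 genes that build or attach it, 30 were tested. In attached cells 9 rose, 5 fell and 16 were not called, and in floating cells 10 rose, 6 fell and 14 were not called, with medians of 0.04 and 0.01. These 14 and 16 called of 30 stand beside 62.3% and 60.4% of all tested genes. The range was narrow. PIGB, a mannosyltransferase, had the highest called value, at 0.72 ± 0.08 (adjusted p = 2.71e-08) and 0.61 ± 0.08 (adjusted p = 3.26e-07), and PIGX, a subunit of another mannosyltransferase, the lowest, at -0.77 ± 0.07 (adjusted p = 2.32e-10 and 4.94e-10) in both states. Other genes for GPI-anchored proteins moved in both directions. Of 26 tested, 10 rose and 10 fell in attached cells, and 11 rose and 13 fell in floating cells, beside 29.5% rising and 32.8% falling among all tested genes when attached, and 29.3% and 31.1% when floating. BST2, an interferon-induced antiviral tether, rose 30.8-fold when attached (adjusted p = 1.57e-19) and 19.4-fold when floating (adjusted p = 1.44e-18). NT5E, the ectonucleotidase CD73, had log2 fold changes of -3.67 ± 0.09 (adjusted p = 8.34e-22) and -3.91 ± 0.08 (adjusted p = 2.22e-23). GFRA1, a receptor for GDNF, reached -3.69 ± 0.33 when attached (adjusted p = 5.32e-10), and its call in suspension (adjusted p = 0.042) was lost in the DESeq2 fit (adjusted p = 0.0509), and GFRA1 there had at most 7 counts in any library. GFRA1 reached the filter only through the attached control group, with 69 to 78 counts, so its attached test is not independent of the filter. Its value of -1.65 ± 0.69 in suspension was -2.33 without replicate 1 and -1.05 without replicate 3 of the GFI1 group. The latter had an adjusted p of 0.189.

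Other adhesion molecules of the superfamily moved in both directions. Of 20 tested from a list of 30, 12 fell (60%) and 6 rose (30%) in attached cells. In floating cells 11 fell (55%) and 7 rose (35%). Of all tested genes, 32.8% and 31.1% were called lower, and 29.5% and 29.3% higher. The shares that rose were thus near those of all genes. The medians were -0.37 and -0.22. CADM1, a nectin-like adhesion molecule, fell, with log2 fold changes of -3.65 ± 0.08 (adjusted p = 1.06e-22) and -3.15 ± 0.09 (adjusted p = 7.72e-20), and so did the neural adhesion molecule L1CAM, at -3.37 ± 0.15 (adjusted p = 3.88e-16) and -3.61 ± 0.12 (adjusted p = 1.66e-18). CLMP, a tight-junction-associated molecule, rose by 2.48 ± 0.17 (adjusted p = 3.26e-12) and 2.72 ± 0.17 (adjusted p = 6.1e-13). No set test was run for any of these lists, and the counts describe them only.

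**Figure D5:**
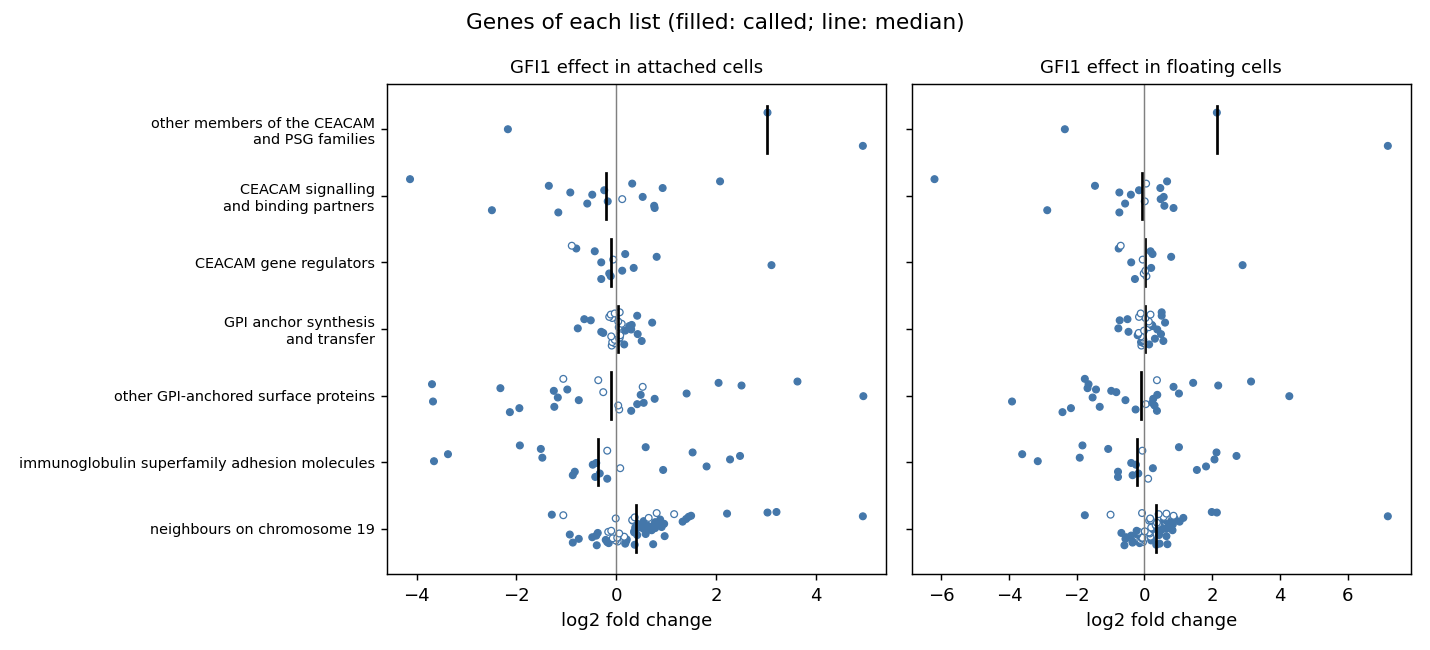
Log2 fold change with GFI1 (horizontal axes) of the tested genes of 7 lists (vertical axis), in attached cells (left) and floating cells (right). Filled points were called, and lines are list medians, which lie at 0.04 and 0.01 for GPI anchor synthesis and at 0.40 and 0.35 for the neighbours on chromosome 19.

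The genes whose levels ran most like each tested member were found by the distance between log2 CPM profiles over the 12 libraries, each centred on its mean, among 13760 other protein-coding genes. Nearest to CEACAM6, with distances of 1.03 to 1.29 against a length of 11.5 for its own profile, were FGA, a fibrinogen chain, ITIH2, an inhibitor heavy chain of blood plasma, and AGR2, a disulfide isomerase of secretory epithelia. AGR2 had 663 ± 40.6 CPM in attached control and 10.5 ± 0.396 in attached GFI1 cells, and 1095 ± 57 and 17.8 ± 4.14 CPM in floating cells. Nearest to CEACAM5 were TP63, the p63 transcription factor, and SYNGR4, at distances of 1.27 and 1.33 against a length of 6.26. Their log2 fold changes with GFI1, -2.89 and -3.32 when attached and -3.89 and -3.70 when floating, were smaller in size than those of CEACAM5. Nearest to CEACAM1 were KLHL24, HABP2 and YPEL2, at 0.542 to 0.682 against 2.14. KLHL24 rose with GFI1 in attached cells by 1.14 ± 0.08 and in suspended control cells by 1.32 ± 0.08 on the log2 scale (adjusted p = 3.72e-12 and 1.34e-12). The genes named here were chosen by their likeness to a member in these libraries. Changes that they share with it follow from that choice and are not independent evidence. Nearest to CEACAM19 were FOXJ2, SLC39A14, a zinc and iron transporter, and SRF, the serum response factor, at 0.242 to 0.288, although its own profile had a length of only 0.522.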

How the data were processed

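The deposited values were raw counts per gene in 1 table, made by the authors from poly-A selected mRNA sequenced on an Illumina NovaSeq system. The study's methods name Hisat2 and featureCounts with GRCh38, and the submitters' processing notes name Bowtie2, HTSeq and hg38. These differ, and which tools made the table was not settled. The annotation release and strand setting were not given in the sources used here. The tests used edgeR 4.0.16 in R 4.3.3: filterByExpr (minimum count 10, minimum total 15), TMM scaling, and 1 quasi-likelihood model of 4 group means with 5 contrasts over 12 libraries. Two-sided p-values were corrected by Benjamini-Hochberg over 17829 genes, and genes with 0.05 or less were called without a fold threshold. A gene could pass the filter only through the groups in which it was high. Its difference from the other groups is then not independent of the filter. Standard errors are the log2 fold change over the root of the F statistic. CPM are TMM-scaled, and log2 CPM used a prior count of 2. Levels per kilobase used the gene lengths of the table. Positions and exons came from GENCODE v44 and promoters from RefSeq (GRCh38.p14). Promoters were aligned with Biopython 1.88.

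A fold against a group without counts used a floor of 3 counts over that group and left out counting error in the other group. The 95% counting intervals were exact. The precision is limited by 17014188 to 20748677 counts per library. Groups came from the labels. Named genes were GFI1, the members, family genes that were tested, the called gene with the highest and lowest GFI1 effect of each list, the 3 genes nearest in pattern and the neighbours on either side. Some genes that these rules or the marker lists take are not reported here. Any other gene named was picked once its values were known, as stated there. The members, lists and rules were chosen with earlier results of these data known. Alternatives were DESeq2 1.42.0, RLE, upper quartile and library size scaling, 2 filters, only the groups compared, a replicate block, a fold threshold of 2, and leaving out each library. The code was tested on simulated data.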

Additional observations from a re-analysis of the deposited data

Results flagged for a closer look

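The GFI1 effect on CEACAM1 differed between the states by the test of the interaction. It was 1.34 ± 0.11 in attached and 0.06 ± 0.10 in floating cells on the log2 scale, a difference of -1.28 ± 0.15 (edgeR quasi-likelihood test, adjusted p = 1.61e-06). Leaving out each library in turn kept it between -1.389 and -1.179.

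The GFI1 effect on CEACAM19 also differed, at -0.32 ± 0.08 in attached and 0.15 ± 0.08 in floating cells, a difference of 0.47 ± 0.11 (adjusted p = 0.00701). Leaving out each library kept it between 0.358 and 0.543, and the adjusted p stayed at 0.0285 or lower. PVR, which shares exon bases with CEACAM19, had GFI1 effects of -0.87 ± 0.04 and -0.35 ± 0.04, a difference of 0.51 ± 0.06 (adjusted p = 4.82e-07). For AC243964.3, which starts within CEACAM19, the difference was 0.72 ± 0.10 (adjusted p = 2.74e-05). The genes on both sides of CEACAM19 thus showed the same direction, and their part in the result was not tested. For CEACAM1 and CEACAM19 alike, the higher level of GFI1 in floating GFI1 libraries cannot be told apart from the state. Groups of 3 libraries were not searched for single outlying values.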

How the results depend on the processing

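The GFI1 falls of CEACAM6 and CEACAM5 and the rise of CEACAM1 in attached cells were called under every alternative in which the gene was tested. CEACAM5 was not tested when at least 10 counts were required in every library, which left 1 member called lower in floating cells and no other family gene tested. One member, CEACAM19, was called higher in floating cells with upper quartile and with library size scaling, and 2 members were called higher in suspended GFI1 cells with upper quartile scaling or at least 10 counts in every library. Requiring a fold change of at least 2 left no member called lower in suspended control cells, higher in suspended GFI1 cells, or positive in the interaction. In attached cells with GFI1 that rule kept 1 regulator of 11, 5 signalling partners of 15, no GPI anchor gene of 14, 9 adhesion molecules of 18, 13 GPI-anchored proteins of 20 and 9 neighbours of 47. In floating cells it kept 1 regulator of 8, 3 partners of 14, no GPI anchor gene of 16, 11 adhesion molecules of 18, 14 GPI-anchored proteins of 24 and 6 neighbours of 39. Over all genes it kept 1730 of 5258 higher and 1517 of 5844 lower calls in attached cells, 1505 of 5223 and 1573 of 5547 in floating cells, 660 of 3489 and 249 of 3663 in suspended control cells, 353 of 2673 and 147 of 2904 in suspended GFI1 cells, and 95 of 848 and 146 of 1071 in the interaction. Without a filter on low counts, 5 in place of 3 other family genes were called in attached cells.

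Leaving out each library in turn gave 0 to 1 members called higher with GFI1 in floating cells, 1 to 2 called negative in the interaction, and 0 to 1 called lower in suspended control cells. The sign turned for CEACAM1 with GFI1 in floating cells (-0.028 to 0.170) and for FOXJ2 (-0.046 to 0.081), neither of which was called. The causes were not tested. Replicate numbers showed no sign of pairing: of 18 same-numbered pairs none had a correlation of deviations over 0.1 (-0.0306 to 0.0311, against -0.0368 to 0.0296 for other pairs). Noise between libraries can hide a weak pairing in such correlations, so that they cannot exclude it. With a replicate block, every member kept its call, and PSG4 in floating cells lost its own (adjusted p = 0.0582). Depth limits CEACAM5 and CEACAM7, which had at most 4 counts over any GFI1 group.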
